A study of Mus musculus with 9 samples.

Results

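Tight junctions were followed through 9 of their genes in mouse embryonic fibroblasts, in an embryonic stem cell line and in induced pluripotent stem cells. The genes encode the claudins Cldn1, Cldn3, Cldn4, Cldn5, Cldn6 and Cldn7, occludin (Ocln), the junctional adhesion molecule JAM-A (F11r) and the scaffold ZO-1 (Tjp1). They were taken by symbol, as the probe set with exactly 1 gene symbol and the highest mean, and all 9 were found among 19938 measured genes, each with 1 probe set. The study set induced pluripotent stem cells (iPS cells) beside 2 controls, and total RNA of each group was measured on 3 whole-transcript arrays, 9 arrays in all. The fibroblasts (MEF) were cultured in vitro to a passage below 3 and are the cells the iPS cells were made from. R1 is a mouse embryonic stem cell line. The labels used here name no strain, feeder layer, reprogramming agent or number of iPS clones. Arrays of a group are called biological repeats in the design text, but whether each iPS array is a derivation of its own is not stated, and the p-values then cover only the spread among these samples.

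A tight junction is the belt of contacts nearest the apical surface of an epithelial cell, which seals the space between neighbouring cells and separates apical from basolateral membrane. Claudins are small membrane-spanning proteins that form the strands of the belt, occludin and the JAM proteins lie beside them, and ZO proteins tie them to actin. Fibroblasts have no such belt, although they do make ZO-1, whereas mouse pluripotent cells grow as compact colonies with E-cadherin contacts, and the first embryonic epithelium, the trophectoderm, builds tight junctions around the blastocyst.

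The stretches upstream of 5 genes are shown, those of Cldn4, Cldn6, Cldn7 and F11r because these rose together in iPS cells, and that of Cldn3 because it lies next to Cldn4 and did not pass the test. They were taken from RefSeq (GRCm38.p6), which held windows for all 9 genes, read 5′ to 3′ on the gene's strand and end just before the annotated gene. Capitals mark matches on either strand to CACCTG, the E-box read by Snail and Zeb repressors, and to GGGCGG, the GC box read by Sp and Klf factors; no match to ACCGGT, the core of the Grainyhead motif, was found in any member's window. None of the motifs contains another. The stretches are chr5:134946935-134947184 (minus strand) for Cldn4, chr5:134985964-134986213 (plus) for Cldn3, chr17:23679115-23679347 (plus) for Cldn6, chr11:69964529-69964778 (plus) for Cldn7 and chr1:171437311-171437560 (plus) for F11r.
Cldn4: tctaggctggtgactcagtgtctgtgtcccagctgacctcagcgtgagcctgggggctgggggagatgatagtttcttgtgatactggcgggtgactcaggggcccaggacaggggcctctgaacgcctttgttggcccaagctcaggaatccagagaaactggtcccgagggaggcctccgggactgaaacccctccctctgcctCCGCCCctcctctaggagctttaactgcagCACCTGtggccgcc
Cldn3: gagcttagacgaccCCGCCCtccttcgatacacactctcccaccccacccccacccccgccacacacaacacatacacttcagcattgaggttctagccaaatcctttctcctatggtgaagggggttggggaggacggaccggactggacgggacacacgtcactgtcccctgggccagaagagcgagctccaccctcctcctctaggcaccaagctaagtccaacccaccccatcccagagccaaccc
Cldn6: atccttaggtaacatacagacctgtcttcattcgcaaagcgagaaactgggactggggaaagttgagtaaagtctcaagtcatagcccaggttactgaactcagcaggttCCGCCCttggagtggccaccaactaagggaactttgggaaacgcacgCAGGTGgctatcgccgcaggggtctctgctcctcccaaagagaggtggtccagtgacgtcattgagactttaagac
Cldn7: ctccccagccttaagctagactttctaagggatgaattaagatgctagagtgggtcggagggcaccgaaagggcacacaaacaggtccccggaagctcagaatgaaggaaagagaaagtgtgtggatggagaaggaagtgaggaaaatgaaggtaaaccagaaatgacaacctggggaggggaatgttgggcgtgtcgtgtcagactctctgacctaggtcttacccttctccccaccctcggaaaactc
F11r: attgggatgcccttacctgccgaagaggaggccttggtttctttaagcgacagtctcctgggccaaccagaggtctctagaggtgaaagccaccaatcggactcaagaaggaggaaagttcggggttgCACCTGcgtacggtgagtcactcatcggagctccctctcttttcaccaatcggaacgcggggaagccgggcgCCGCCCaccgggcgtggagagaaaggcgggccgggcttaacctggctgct
The E-box begins 14 bases upstream of the start site of the window in Cldn4, 93 bases in Cldn6 and 122 bases in F11r, and the Cldn3 window holds none. In Cldn6 the annotated gene begins 17 bases before that start site, and these bases, which are not shown, hold a second GC box at 8 bases. Cldn7 has 2 windows, of which the one shown holds neither motif, and the other, not shown, holds E-boxes at 97 and 57 bases and a GC box at 6 bases. Over 250 bases upstream of each start site, 5 of the members' 11 windows held an E-box, against 17.2% of all 32851 windows, and 10 of 11 held a GC box, against 32.7%. The Grainyhead core was in 1.86% of all windows. The members' windows had 51.2% to 69.2% G and C, and shares among windows of like composition were not counted. A match is a string of letters and not a shown binding site, since the arrays measured RNA.

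The groups carried the markers of their labels. All 6 measured pluripotency markers were called higher and all 8 fibroblast markers lower in R1 and in iPS cells than in MEF, for example Pou5f1 (Oct4) with a log2 difference of 6.10 in R1 and 5.92 in iPS cells. Between iPS and R1 cells 1 pluripotency marker was called, Zfp42, which was lower in iPS cells (-2.77, limma adjusted p = 2.92e-06). Esrrb was also lower in iPS than in R1 cells (-0.50, limma adjusted p = 0.0352) but was not called. Summed fibroblast marker signal was 28730 to 31870 in MEF arrays, 2226 to 3156 in R1 arrays and 3192 to 3872 in iPS arrays, and no marker of any list was at 0. In such bulk cultures fewer cells of a type and less RNA per cell cannot be told apart. Of the 6 epithelial markers, Epcam and Cdh1 (E-cadherin) rose by 5.08 and 4.43 in iPS and by 4.59 and 4.39 in R1 cells, and Krt19 fell by 1.44 and 1.64. Krt8 rose in iPS cells (1.18 ± 0.16) and had 0.42 ± 0.16 in R1 cells (limma adjusted p = 0.0522). Krt18 (-0.33 in iPS and -0.90 in R1 cells) and Krt7 (-0.63 and -0.97) were not called, and their R1 and iPS arrays all lay below the MEF arrays. Of 6 stratified epithelium markers 0 were called in either comparison with MEF. Of 6 macrophage markers 1, Cd68, rose (1.12 in iPS and 1.36 in R1 cells), while Lyz2 was lower in R1 cells (-0.38) and not called. Of 6 primitive endoderm markers 1, Gata6, fell in iPS cells (-1.08) and 0 were called in R1 cells. Gata6 was also lower in R1 cells (-0.69, limma adjusted p = 3.82e-05). Sox7 (0.28 in iPS and 0.30 in R1 cells) and, in R1 cells, Sox17 (0.33) were higher and not called. The shares of all genes called were 5.08% higher and 7.58% lower in iPS, and 5.56% and 7.94% in R1 cells. The part of these markers in the junction results was not tested. Array medians ran from 78.2 to 83.3, and 30.1% of genes had a mean under 50.

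Signals were compared as log2(signal + 16), which understates the differences of dim genes. A gene was called, and is said to have risen or fallen, where the adjusted p was under 0.05 and the log2 difference was at least 1 in size. The ± beside a log2 difference is its standard error in the limma fit over all genes, that beside a signal is the SD of 3 arrays, and all adjusted p-values are limma's, adjusted by Benjamini-Hochberg over 19938 genes. Both comparisons with MEF use the same MEF arrays and are not independent. The level of a probe set depends on its probes, so signals are compared between groups and never between genes.

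Claudin genes fell into those that rose in the pluripotent cells and those that did not pass the test. Cldn4, Cldn6 and Cldn7 rose in iPS cells, and Cldn4 and Cldn6 also in R1 cells. Cldn3, Cldn5 and Cldn1 were called in none of the 3 comparisons.

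Cldn6 encodes a claudin of embryonic epithelia that is used as a surface marker of pluripotent cells. Its signal (probe set 10442327) was 67.2, 70.03 and 61.8 in MEF replicates 1 to 3, 468, 340 and 416 in R1 replicates, and 923, 719 and 891 in iPS replicates. The 3 groups did not overlap, with every iPS array above every R1 array and every R1 array above every MEF array. The mean signal was 66.3 ± 4.2 in MEF (SD, n = 3), 408 ± 64 in R1 and 844 ± 110 in iPS cells, a ratio to MEF of 6.15 for R1 and 12.7 for iPS. The log2 difference was 3.38 ± 0.12 (SE) in iPS against MEF (adjusted p = 1.78e-08) and 2.35 ± 0.12 in R1 against MEF (adjusted p = 1.42e-07). Among the 9 genes this was the largest difference in each comparison with MEF.

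Cldn4 encodes a sealing claudin of simple epithelia and of trophectoderm. Its signal (probe set 10534395) was 126, 95.7 and 116 in the MEF arrays, 410, 396 and 425 in R1 and 1144, 969 and 1053 in iPS arrays. These groups did not overlap either, and the R1 arrays lay close together. Mean signals were 113 ± 16 in MEF, 410 ± 14 in R1 and 1055 ± 88 in iPS cells, a ratio to MEF of 3.64 and 9.36. The log2 difference from MEF was 3.06 ± 0.09 in iPS (adjusted p = 7.00e-09) and 1.73 ± 0.09 in R1 cells (adjusted p = 1.65e-07).

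Cldn7, which encodes a claudin of epithelia that binds EpCAM, had signals (probe set 10377673) of 71.5, 89.3 and 87.4 in MEF, 179, 171 and 176 in R1 and 377, 242 and 331 in iPS arrays. The 3 groups again did not overlap, but the iPS arrays were spread more widely than the R1 arrays, with SDs of 0.31 and 0.03 on the log2 scale. Cldn7 rose in iPS cells by 1.74 ± 0.14 (adjusted p = 2.94e-06). In R1 cells the log2 difference of 0.96 ± 0.14 (95% interval 0.65 to 1.27; adjusted p = 0.000195) lay just under the minimum of 1, and it was called without MEF replicate 2 (1.01).

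Cldn3, a sealing claudin of many epithelia, had signals (probe set 10526241) of 126, 103 and 132 in MEF, 141, 116 and 126 in R1 and 159, 125 and 125 in iPS arrays, so the groups overlapped. Its log2 difference from MEF was 0.16 in iPS (95% interval -0.09 to 0.41; adjusted p = 0.286) and 0.08 in R1 cells (-0.17 to 0.33; adjusted p = 0.623). Cldn5, the main claudin of endothelium, lay between 82.1 and 96.3 on all 9 arrays (probe set 10434229). Its log2 difference from MEF was -0.01 in iPS (-0.15 to 0.13; adjusted p = 0.916) and -0.03 in R1 cells (-0.17 to 0.11; adjusted p = 0.749). These intervals leave out a change of 1 log2 unit in the signals of Cldn3 and Cldn5. The Cldn5 signal is near the array medians of 78.2 to 83.3, and without detection calls neither signal is told apart from background. Of 8 endothelial markers 0 were called higher and 1, Emcn, lower in each comparison with MEF. Emcn had -1.04 in iPS cells, but -0.98 and not called without iPS replicate 3. By the adjusted p alone 5 of the 8 passed in iPS and 4 in R1 cells, beside 48% and 48.9% of all genes. Tek (0.79 in iPS and 0.87 in R1 cells) and Esam (0.52 and 0.45) were higher. Erg (-0.42 and -0.45) and, in iPS cells, Kdr (-0.41) were lower, as was Emcn. The summed signal of the 8 was 449 to 508 in MEF, 503 to 550 in R1 and 491 to 513 in iPS arrays. Cldn1, a claudin of the skin barrier, was dim, with signals (probe set 10438769) of 21.7, 31.6 and 22.8 in MEF, 17.8, 15.03 and 18.001 in R1 and 24.8, 16.9 and 21.9 in iPS arrays. The R1 arrays lay below all MEF arrays, with a log2 difference of -0.32 ± 0.10 (adjusted p = 0.0252) that is under the minimum, and the iPS arrays overlapped MEF (-0.15 ± 0.10; adjusted p = 0.280). No detection calls were used, so this signal is not told apart from background.

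**Figure D1:**
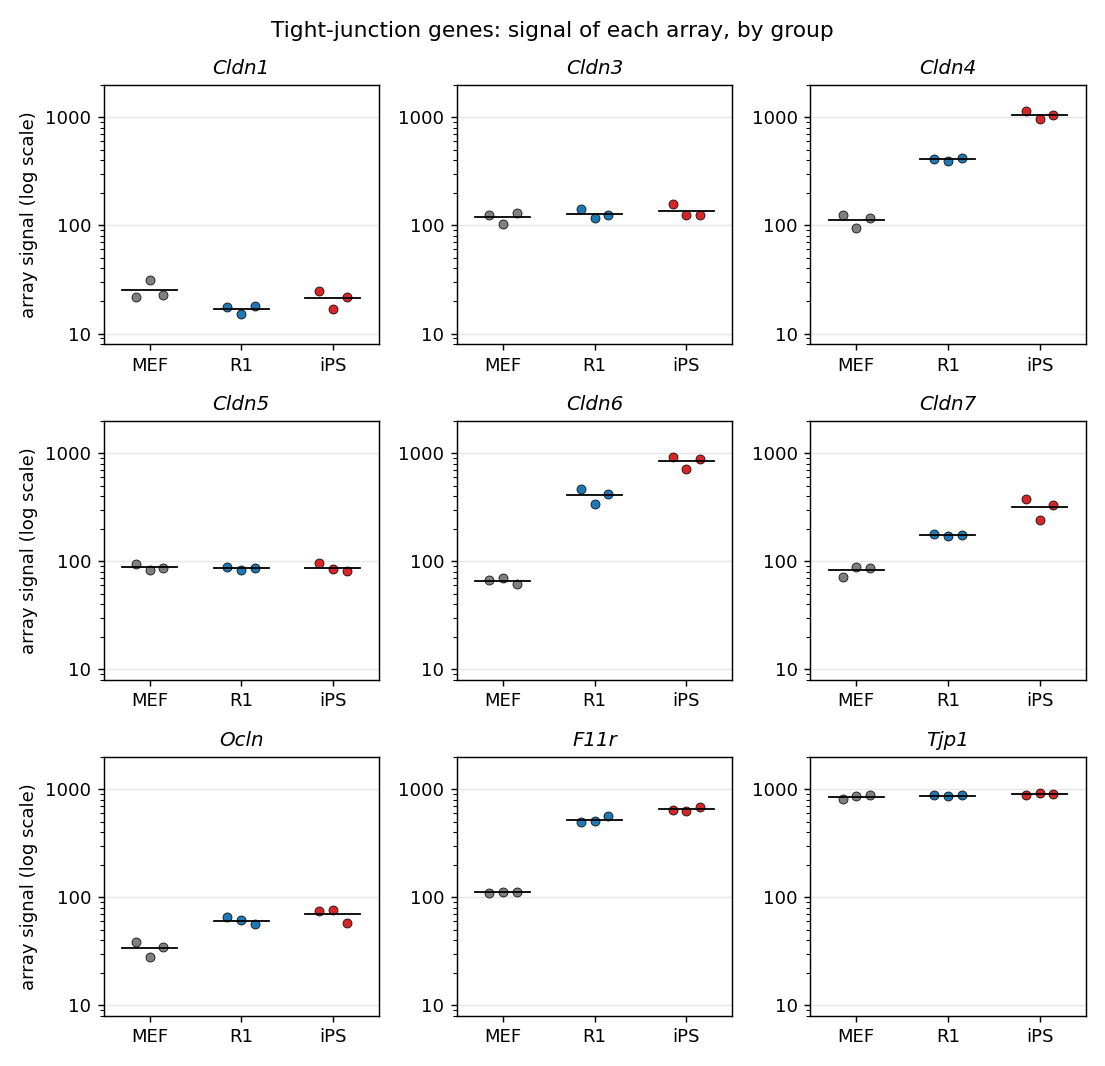
Signal of each array (log axis) for the 9 tight-junction genes in MEF, R1 and iPS cells; points are arrays in the order of replicates 1 to 3 and bars are group means. Cldn4, Cldn6, Cldn7 and F11r step up from MEF to R1 to iPS without overlap of the groups, whereas Cldn3 and Cldn5 overlap in all 3 groups.

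F11r and Ocln, the members that lie beside the claudins in the membrane, were higher in pluripotent cells to unlike degrees. F11r encodes JAM-A, an immunoglobulin-fold adhesion molecule that recruits polarity proteins. Its signal (probe set 10351623) was 110, 111 and 111 in MEF, 498, 505 and 564 in R1 and 639, 626 and 685 in iPS arrays, and the groups did not overlap. F11r rose by 2.39 ± 0.06 in iPS (adjusted p = 2.12e-09) and by 2.09 ± 0.06 in R1 cells (adjusted p = 3.78e-09). Occludin, a MARVEL-domain protein of the strands, had signals (probe set 10411668) of 38.1, 27.9 and 34.5 in MEF, 64.9, 61.4 and 56.1 in R1 and 74.5, 75.6 and 58.1 in iPS arrays. All R1 and iPS arrays lay above all MEF arrays and overlapped each other. The log2 differences of Ocln from MEF were 0.79 ± 0.10 in iPS (adjusted p = 9.34e-05) and 0.64 ± 0.10 in R1 cells (adjusted p = 0.000390), which did not reach the minimum. The signal is near the dim end, and with a pseudocount of 1 the iPS difference of Ocln was 1.03 and called.

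Tjp1, the ZO-1 scaffold that binds claudins and F11r to actin and is also found at the adherens junctions of fibroblasts, was called in no comparison. Its signal (probe set 10564343) was 809, 867 and 873 in MEF, 879, 855 and 873 in R1 and 879, 929 and 910 in iPS arrays. The R1 arrays overlapped MEF, and the lowest iPS array lay just above the highest MEF array. The log2 difference was 0.09 in iPS against MEF (95% interval -0.01 to 0.20; adjusted p = 0.143) and 0.03 in R1 against MEF (-0.07 to 0.14; adjusted p = 0.633).

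In iPS against MEF, 4 of the 9 genes were called higher and 0 lower, where 5.08% of all genes rose and 7.58% fell. In R1 against MEF, 3 were called higher and 0 lower, beside 5.56% and 7.94% of all genes. By the adjusted p alone 5 of the 9 passed in iPS, each as higher, where 48% of all genes passed and 24.8% as higher. In R1 cells 6 passed, 5 as higher, where 48.9% of all genes passed and 25.9% as higher. The median log2 difference of the 9 genes was 0.79 in iPS and 0.64 in R1 cells, beside 0.02 over all genes in each. Groups did not overlap for 6 of the 9 genes in each comparison with MEF, where 52.3% of all genes were separated in iPS and 54.4% in R1 cells. The genes were chosen with earlier results of these data known, so the counts describe them and test nothing.

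**Figure D2:**
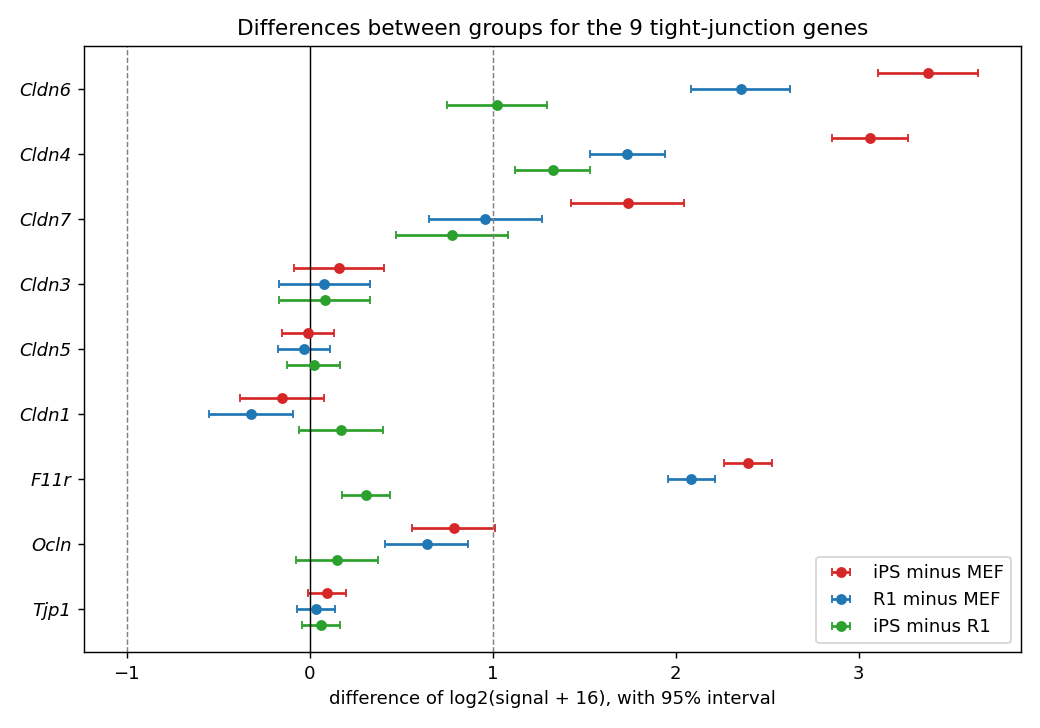
Difference of log2(signal + 16) with its 95% interval for each tight-junction gene in the 3 comparisons; dashed lines mark a difference of 1 in either direction. Cldn6 (3.38) and Cldn4 (3.06) differ most in iPS minus MEF, and Cldn5 and Tjp1 lie near 0 in every comparison.

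iPS cells were set against R1 cells to compare the derived line with the embryonic stem cell line. Cldn4 and Cldn6 rose further in iPS cells. All 9 differences were above 0, but the intervals of Cldn1, Cldn3, Cldn5, Ocln and Tjp1 included 0. With 1 array left out, those of Cldn3 and Cldn5 reached -0.02 and -0.04. In this comparison 2 of the 9 genes were called higher and 0 lower, where 0.296% of all genes rose and 0.166% fell. The median log2 difference was 0.17, beside -0.01 over all genes. Cldn4 was higher by 1.33 ± 0.09 (95% interval 1.12 to 1.53; adjusted p = 6.06e-05), a ratio of mean signals of 2.57. Cldn6 was higher by 1.02 ± 0.12 (0.75 to 1.30; adjusted p = 0.00119), a ratio of 2.07, which is just past the minimum. It was not called without R1 replicate 2 (0.90), iPS replicate 1 (0.96) or iPS replicate 3 (0.98), and with array weights it was 0.91.

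Cldn7 had a log2 difference of 0.78 ± 0.14 between iPS and R1 cells (0.47 to 1.09; adjusted p = 0.00882) and F11r of 0.31 ± 0.06 (0.18 to 0.44; adjusted p = 0.0114), so both passed the adjusted p and neither the minimum. Of the 9 genes 4 passed the adjusted p alone, all as higher, where 8.52% of all genes did and 4.12% as higher. The iPS and R1 arrays of the same 4 genes (Cldn4, Cldn6, Cldn7 and F11r) did not overlap, as was so for 21.9% of all genes. The intervals of the remaining genes were -0.06 to 0.40 for Cldn1, -0.17 to 0.33 for Cldn3, -0.12 to 0.16 for Cldn5, -0.08 to 0.37 for Ocln and -0.05 to 0.16 for Tjp1. A difference inside these bounds is not excluded for them.

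Of 6 markers of trophoblast, the lineage of the first tight junctions, 0 were called between iPS and R1 cells. By the adjusted p 2 passed, both as higher in iPS cells, where 8.52% of all genes passed and 4.12% as higher. The summed signal of the 6 was 499 to 559 in MEF, 738 to 757 in R1 and 994.5 to 1286 in iPS arrays. This sum rests largely on Tfap2c and Eomes, with mean signals of 313 and 142 in R1 and 514 and 268 in iPS cells. Eomes was 407 in iPS replicate 1, beside 194 and 202 in replicates 2 and 3. The list did not move as 1 against MEF. Tfap2c (2.88 in iPS and 2.19 in R1 cells) and Eomes (2.29 and 1.52) rose and Gata3 fell (-1.15 and -1.64), whereas Cdx2, Elf5 and Hand1 were not called. The log2 difference of iPS against R1 was 0.69 ± 0.07 for Tfap2c (adjusted p = 0.000552), 0.49 ± 0.05 for Gata3 (adjusted p = 0.000511) and 0.77 ± 0.25 for Eomes (adjusted p = 0.0990). It was 0.13 for Cdx2 (adjusted p = 0.634), -0.05 for Elf5 and -0.03 for Hand1. Of the 6 epithelial markers 0 were called and 3 passed the adjusted p, each as higher in iPS cells. The shares of all genes are those given above, and counts from such small lists are not read as a result about them. The 3 markers were Krt8 (0.77 ± 0.16, adjusted p = 0.0177), Krt18 (0.57 ± 0.11, adjusted p = 0.0107) and Epcam (0.49 ± 0.09, adjusted p = 0.00958). The summed signal of the 6 was 3118 to 3486 in R1 and 3738 to 4348 in iPS arrays. The part of these markers in the claudin differences was not tested.

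Genes that lie next to a member on the chromosome gave a further comparison, chosen after the values were seen. In RefSeq, Cldn3 and Cldn4 are neighbouring protein-coding genes, as are Cldn6 and Cldn9, Cldn1 and Cldn16, and Ocln and Marveld2, which encodes tricellulin, the MARVEL protein of 3-cell contacts. Cldn9 had signals of 68.6, 64 and 64.4 in MEF, 70.5, 61.8 and 65.8 in R1 and 69.6, 64.9 and 65.8 in iPS arrays, so its groups overlapped throughout. Its log2 difference from MEF was 0.02 in iPS (95% interval -0.10 to 0.14) and 0.01 in R1 cells (-0.11 to 0.12), beside the rise of Cldn6. Marveld2 had log2 differences of 0.76 ± 0.10 in iPS (adjusted p = 0.000104) and 0.61 ± 0.10 in R1 cells (adjusted p = 0.000487), which like those of its neighbour Ocln passed the adjusted p and not the minimum. Cldn16 was at -0.12 and 0.01. All Cldn9 signals lay below the array medians of 78.2 to 83.3, and Cldn16 signals ran from 32.2 to 44.0. Without detection calls neither is told apart from background, so unchanged expression of these neighbours is not shown.

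**Figure D3:**
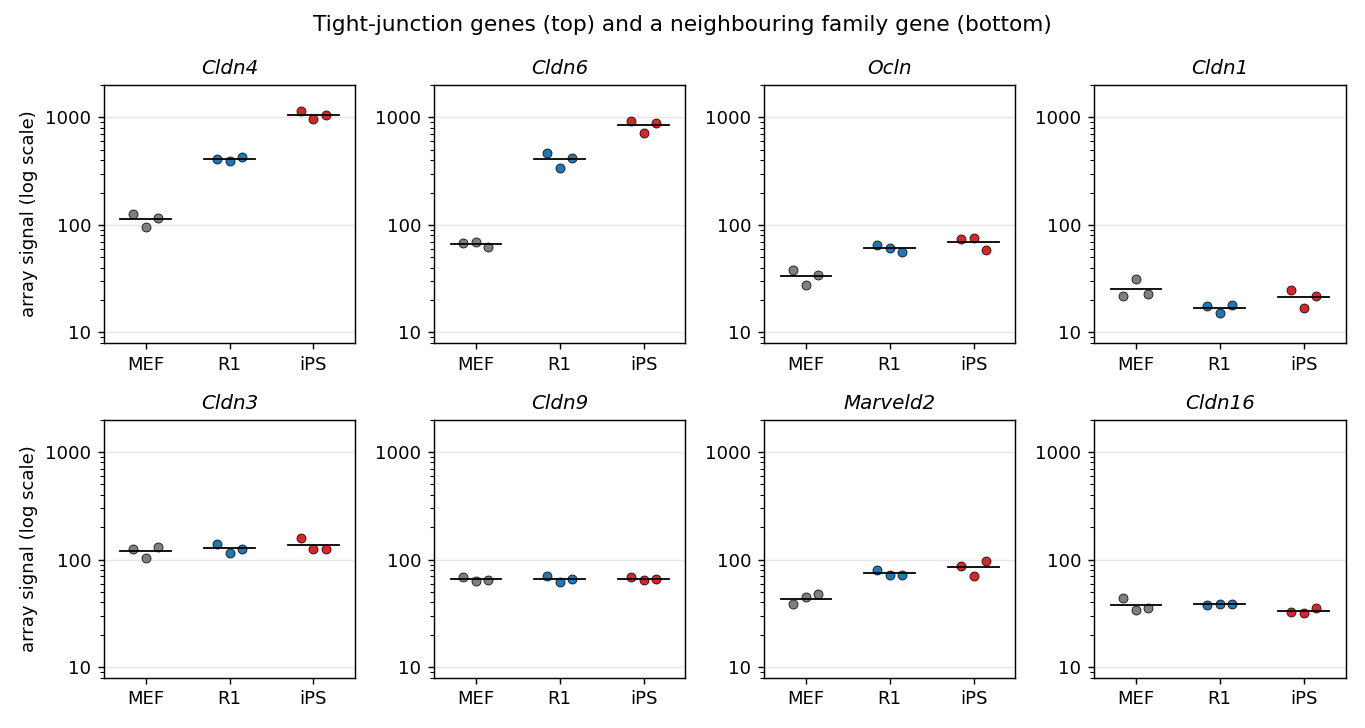
Signal of each array (log axis) for Cldn4, Cldn6, Ocln and Cldn1 in the top row and, below each, the family gene next to it on the chromosome; points are arrays and bars are group means. Cldn4 and Cldn6 rise while the signals of Cldn3 and Cldn9, not told apart from background, overlap between groups. Ocln and Marveld2 are both higher in R1 and iPS than in MEF arrays.

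The wider set of tight-junction genes moved in both directions. Of 59 other measured genes, 5 were called higher and 7 lower in iPS against MEF, which is 20.3% beside 12.7% of all genes. In R1 against MEF 5 were higher and 8 lower, 22.0% beside 13.5% of all genes. The median log2 difference of the 59 genes was 0.02 in each, as over all genes.

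Of 19 measured claudins outside the 9, 0 were called higher and 1 lower in each comparison with MEF. These counts are near the shares of all genes, 5.08% higher and 7.58% lower in iPS and 5.56% and 7.94% in R1 cells. This was Cldnd1, a claudin-domain protein, with a mean signal of 2126 in MEF, 625 in R1 and 762 in iPS cells and log2 differences of -1.74 ± 0.05 in R1 and -1.46 ± 0.05 in iPS cells. Cldn12, a claudin without the usual anchor to ZO proteins and named outside the rule, was not called. It lay at the minimum with -0.97 ± 0.07 in iPS and -0.996 ± 0.07 in R1 cells. The remaining claudins of this list had signals from 9.0 (Cldn24) to 111 (Cldn19), most below the array medians of 78.2 to 83.3. Without detection calls they are not told apart from background, so unchanged expression is not shown for them.

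Among 10 other membrane proteins, 3 rose and 1 fell in iPS against MEF, and 3 rose and 2 fell in R1 against MEF. Of all genes 5.08% rose and 7.58% fell in iPS cells, and 5.56% rose and 7.94% fell in R1 cells. Jam2 (JAM-B), a relative of F11r, rose most, with signals of 113, 163 and 125 in MEF, 1978, 2304 and 1663 in R1 and 739, 1252 and 1193 in iPS arrays. Every R1 array was above every iPS array, the reverse of the order seen for Cldn4 and Cldn6. The log2 difference of Jam2 from MEF was 3.74 ± 0.21 in R1 (adjusted p = 2.26e-07) and 2.82 ± 0.21 in iPS cells (adjusted p = 1.75e-06). Between iPS and R1 it was -0.92 ± 0.21 (adjusted p = 0.0258), and it was called without R1 replicate 3 (-1.03), iPS replicate 2 (-1.05) or iPS replicate 3 (-1.02). Jam3 (JAM-C) fell, by 1.71 in R1 and by 1.402 in iPS cells. The angulins Lsr and Ildr1, which mark 3-cell contacts, rose in iPS cells by 1.49 ± 0.08 and 1.16 ± 0.12 and in R1 cells by 1.18 ± 0.08 and 1.67 ± 0.12.

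Clmp, an adhesion molecule related to the JAM proteins, was the gene of this wider set that was called between iPS and R1 cells, 1 of 59 (1.69%) beside 0.461% of all genes. Its signal was 383, 437 and 396 in MEF, 77.7, 78.2 and 70.03 in R1 and 186, 251 and 239 in iPS arrays. The groups did not overlap, with iPS arrays between the others. Clmp fell by 2.20 in R1 against MEF and was higher by 1.39 ± 0.10 in iPS against R1 (adjusted p = 8.61e-05), while iPS against MEF was -0.81 ± 0.10 (adjusted p = 7.49e-05) and not called. Of the 8 fibroblast markers 0 were called between iPS and R1 cells. Col1a1 (0.67, adjusted p = 0.029) and Prrx1 (0.53, adjusted p = 0.0235) passed the adjusted p, both as higher in iPS cells. The log2 differences of the 8 markers ran from -0.31 to 0.67, with the sums given above. Their part in the Clmp difference was not tested.

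Of 14 plaque genes other than Tjp1, 0 rose and 4 fell in iPS cells, and 0 rose and 5 fell in R1 cells. The shares of all genes were 5.08% higher and 7.58% lower in iPS, and 5.56% and 7.94% in R1 cells. Mpdz (MUPP1), a scaffold of many PDZ domains, fell by 1.72 in iPS and 1.89 in R1 cells. The angiomotins Amotl1 (-1.57 and -1.78) and Amotl2 (-1.51 and -1.59), which bind YAP and actin, and Arhgef2 (-1.18 and -1.05) fell in iPS and R1 cells respectively. Amot fell in R1 cells (-1.19 ± 0.13) and had -0.92 ± 0.13 in iPS cells, which was called without iPS replicate 1 (-1.05). Tjp3 (ZO-3) and cingulin (Cgn), plaque proteins of epithelia named outside the rule, had log2 differences in iPS against MEF of 0.77 ± 0.11 (adjusted p = 0.000198) and 0.84 ± 0.09 (adjusted p = 3.42e-05), under the minimum.

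Of 16 polarity genes, 2 rose and 1 fell in iPS cells and 2 rose in R1 cells. Beside the shares of all genes (5.08% higher and 7.58% lower in iPS, 5.56% and 7.94% in R1 cells), these small counts are not read as a result about the list. Llgl2, an epithelial homologue of the fly gene lethal giant larvae, rose by 1.85 ± 0.10 in iPS and 1.92 ± 0.10 in R1 cells. Prkcz, which encodes an atypical protein kinase C, rose by 1.24 ± 0.08 and 1.895 ± 0.08. Its other probe set gave only 0.41 and 0.39, so this gene is uncertain. Pard6g, a Par6 adaptor, fell in iPS cells (-1.16 ± 0.11) and had -0.91 ± 0.11 in R1 cells, which was called without MEF replicate 1 (-1.02).

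**Figure D4:**
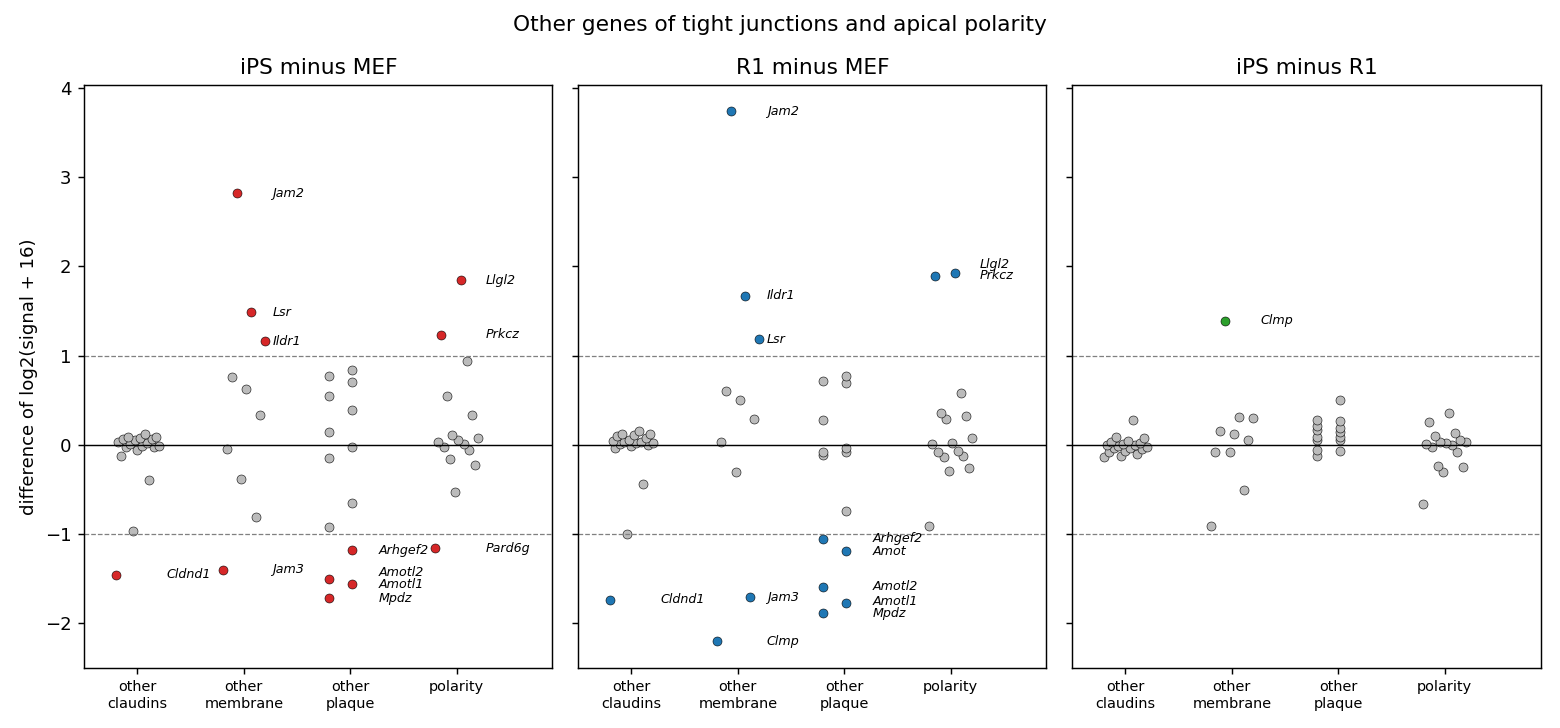
Difference of log2(signal + 16) for 59 other genes of tight junctions and apical polarity, by list and comparison; coloured points with names were called, grey points were not, and dashed lines mark a difference of 1. Cldnd1 is the called claudin, with Cldn12 just short of the line against MEF, other plaque genes are called only as lower against MEF, and 1 gene, Clmp, is called between iPS and R1.

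For the 4 members called in any comparison, the genes with the most alike profile were found by the root mean square distance over the 9 arrays between centred log2 profiles. F11r was closest to Syce2 (0.063), a protein of the meiotic synaptonemal complex, Bnip3 (0.080), a mitochondrial protein of hypoxia responses, and Grhl2 (0.11), a Grainyhead factor of epithelia. Grhl2 had mean signals of 43.4 in MEF, 202 in R1 and 280 in iPS cells. Cldn6 was closest to Ap1m2 (0.16), a sorting adaptor subunit of epithelial cells, the metallothionein gene Mt1 (0.20) and Apoe (0.22). Ap1m2 had mean signals of 53.1, 308 and 612 in MEF, R1 and iPS cells. Cldn4 was closest to the Polycomb-related gene Sfmbt2 (0.20), Epp13 (0.21) and the kinase gene Pim2 (0.21), and Cldn7 to Mmp25 (0.15), Tex15 (0.18) and the prolyl hydroxylase gene Egln3 (0.19). Such distances over 3 groups rest mainly on the 3 group means.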

How the data were processed

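RNA of 9 samples, 3 each of MEF, R1 and iPS cells, was labelled with biotin and measured on Affymetrix whole-transcript arrays, per the labels' protocols. The deposited values are intensity values on a linear scale, 1 per probe set and array (4.0 to 18820.3), whose log2 values have 2 decimals. GCOS 1.4 is listed in the submitters' processing notes, with no step named. How the authors corrected background, summarized probes and normalized is unstated in the labels. No further normalization was applied, since array medians spanned 0.09 on the log2 scale. Precision is limited by the number of arrays.

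The platform annotation paired 21789 of 35557 probe sets with 1 gene symbol, and these were kept. It gave several symbols for 1621 and no entry for 12147. Symbols were looked up by Entrez identifier in RefSeq (GRCm38.p6), which held 21698 and changed 0. For 999 genes with several probe sets the one with the highest mean was used, leaving 19938 genes. The table served for names and neighbours, so its gene coordinates are not printed.

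Values were taken as log2(signal + 16) and fitted in limma 3.58.1 (R 4.3.3) by lmFit and eBayes, all 9 arrays in 1 model of the 3 groups with 6 residual degrees of freedom. The fit was tested on simulated data. The rule for named genes took all 9 members, up to 6 called genes of each list of other tight-junction genes per comparison, up to 4 called markers of each marker list, from which examples are given, and the 3 genes nearest to each called member, with predicted and Riken symbols passed over. Members and lists were chosen with earlier results of these data known. The lists of other tight-junction genes held 25 claudins, 10 membrane, 18 plaque and 17 polarity symbols, and those without a measured probe set are not analysed here. Alternatives covered normalization, pseudocounts of 1 and 64, dim genes, probe sets, array weights, an intensity trend, the minimum difference, the replicate number as a block, arrays of both groups only, and leaving out each array.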

Additional observations from a re-analysis of the deposited data

Results flagged for a closer look

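The differences of iPS and of R1 cells from MEF can be compared because both use the same MEF arrays. One less the other equals iPS against R1, the comparison given above, and its cause was not tested. For 3 of the tight-junction genes that difference was itself called. It was 1.33 for Cldn4 (adjusted p = 6.06e-05), with iPS arrays higher in 3 of 3, and 1.02 for Cldn6 (adjusted p = 0.00119), also higher in 3 of 3. For Clmp it was 1.39 (adjusted p = 8.61e-05), where the fall from MEF was smaller in iPS than in R1 cells, and again 3 of 3 iPS arrays were above the R1 arrays. The p-values are limma's.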

How the results depend on the processing

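The 4 members with a called difference (Cldn4, Cldn6, Cldn7 and F11r) kept its sign under all 22 alternatives. Differences that were not called could change sign with 1 array left out. That of Cldn5 ran from -0.07 to 0.03 in iPS against MEF, and that of Cldn3 from -0.01 to 0.14 in R1 against MEF. In iPS against MEF and R1 against MEF no called member lost its call under any alternative in which it was tested; Cldn1 could not be tested with genes of a mean under 50 left out. Whether the replicate numbers pair the samples was not settled. Of same-numbered pairs of arrays, 4 of 9 had deviations correlated above 0.1 (-0.08 to 0.25), and 3 of 18 other pairs did. Deviations of the replicate 1 arrays were correlated between groups (0.21, 0.229 and 0.245). So were those of MEF replicate 2, R1 replicate 2 and iPS replicate 3 (0.196, 0.198 and 0.193), which a block by number does not join. A batch shared between groups was not tested. With the replicate block the members called were 4 and 3 for iPS and R1 cells against MEF and 2 for iPS against R1, as without it, and no call of a member changed.

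With no minimum difference, R1 against MEF had 6 members called and iPS against R1 had 4, and the other tight-junction genes called were 31, 30 and 10 in the 3 comparisons. Against a tested difference of 1 (treat), iPS against R1 had 0 members and 0 other genes called, beside 4 and 10 at an adjusted p under 0.05. It had 1 member called with a pseudocount of 64 or array weights, which was Cldn4. Leaving out 1 array gave 1 to 2 members and 1 to 2 other genes in that comparison.

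The median difference of the 9 genes moved with the pseudocount, to 1.03, 0.85 and 0.29 with 1 and to 0.45, 0.36 and 0.094 with 64. With dim genes left out it was 1.26, 0.80 and 0.23, over 8 genes. Leaving out 1 array gave 0.55 to 0.70 in R1 against MEF and 0.10 to 0.26 in iPS against R1. Over all genes, iPS against R1 had 92 called, 45 with a pseudocount of 64, 10 with treat and 1699 with no minimum. No probe set has a detection call, so the dim Cldn1 and Ocln are the least certain members.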

Other observations

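Within the R1 group, replicate 2 was the lowest array for 7 of the 9 genes and for 35.4% of all genes. Within the iPS group, replicate 2 was the lowest for 5 of the 9 and for 26.7% of all genes, among them Cldn4, Cldn6, Cldn7 and F11r.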
